A study of Mus musculus with 20 samples.

Results

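The genes described are Olfr731, Olfr732, Olfr733, Olfr734 and Olfr735, which are 5 olfactory receptor genes that follow one another on mouse chromosome 14, together with Gnal on chromosome 18 and Adcy3 on chromosome 12. They were taken by symbol, 7 genes of 19505 measured, and each had 1 probe. They were selected on the differences between KO and WT arrays and between depots seen in these same values, so their levels and differences are given as a description without a test, and a gene is said to have passed only where its row of the fit over all genes did. The arrays measured total RNA of adipocytes, which per the labels were derived from adipose tissue of mice and differentiated in culture. The 20 arrays fell into 4 groups of 5: Olfm2 knockout (KO) and wild type (WT) of the depot labelled sc, and KO and WT of the depot labelled g. Neither the strain, age, sex and knockout allele nor the meaning of sc and g is spelled out. Olfm2 encodes olfactomedin 2, a secreted glycoprotein first known from neural tissue.

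Olfactory receptors are G protein-coupled receptors of the nasal epithelium, where each sensory neuron uses very few of the many genes of the family. An odorant-bound receptor activates Golf, whose alpha subunit is encoded by Gnal, and Golf activates adenylate cyclase 3, encoded by Adcy3, which makes cyclic AMP and opens a cation channel. Some receptors are also transcribed outside the nose, and Olfr734 has been described as a receptor of asprosin, a peptide hormone cut from the C-terminal end of profibrillin 1 that acts on the liver. Adcy3 is present in many tissues, fat included, and Gnal is also found in the striatum of the brain.

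The RefSeq table of assembly GRCm38.p6 held the start region of 4 of the 5 receptor genes, each from 250 bases before to 50 after the gene's start, 300 bases in all. The 4 are shown because the receptor genes were low together in KO adipocytes. Capitals in Olfr731 and Olfr734 mark TAATTA, the core bound by homeodomain proteins such as Lhx2, a factor used in receptor gene choice. Capitals in Olfr732 and Olfr733 mark the longest run of bases that both share. The windows lie on the minus strand at chr14:50238834-50239133 (Olfr731), chr14:50282222-50282521 (Olfr732), chr14:50299281-50299580 (Olfr733) and chr14:50320819-50321118 (Olfr734).
Olfr731: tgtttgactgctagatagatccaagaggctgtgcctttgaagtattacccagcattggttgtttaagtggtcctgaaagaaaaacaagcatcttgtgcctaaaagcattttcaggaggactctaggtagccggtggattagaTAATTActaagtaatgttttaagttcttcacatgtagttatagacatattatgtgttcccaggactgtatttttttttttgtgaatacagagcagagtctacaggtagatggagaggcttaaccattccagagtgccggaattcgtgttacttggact
Olfr732: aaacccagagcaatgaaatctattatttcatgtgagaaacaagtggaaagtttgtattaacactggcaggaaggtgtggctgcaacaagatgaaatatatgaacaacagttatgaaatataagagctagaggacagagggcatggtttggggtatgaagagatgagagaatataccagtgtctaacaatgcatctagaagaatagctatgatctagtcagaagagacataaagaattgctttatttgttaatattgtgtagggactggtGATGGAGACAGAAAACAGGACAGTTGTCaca
Olfr733: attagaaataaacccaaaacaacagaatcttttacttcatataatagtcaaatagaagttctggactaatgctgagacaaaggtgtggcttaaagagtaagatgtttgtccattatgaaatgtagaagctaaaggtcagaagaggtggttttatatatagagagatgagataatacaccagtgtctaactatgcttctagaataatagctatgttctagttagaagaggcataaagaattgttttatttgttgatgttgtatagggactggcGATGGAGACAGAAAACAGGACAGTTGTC
Olfr734: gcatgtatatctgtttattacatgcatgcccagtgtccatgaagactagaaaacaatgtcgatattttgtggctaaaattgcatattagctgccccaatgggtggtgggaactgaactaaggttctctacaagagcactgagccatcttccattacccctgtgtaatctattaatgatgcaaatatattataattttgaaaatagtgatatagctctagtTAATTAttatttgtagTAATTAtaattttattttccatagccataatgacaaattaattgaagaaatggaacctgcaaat

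The start regions of Olfr732 and Olfr733 matched in 74.6% of aligned positions, with a shared run of 28 bases near the end of both windows. The other 5 pairs matched in 49.9% to 53.3%, and their longest shared runs were 7 to 9 bases. TAATTA was found at 1 place in Olfr731 and at 2 places in Olfr734, and it was not in the windows of Olfr732 and Olfr733. Over both strands, 5.29% of the 32851 start regions in the table held TAATTA, as did 18.6% of the 948 of olfactory receptor genes. Another 3 motifs were in none of the 4 windows: the palindrome of early B-cell factors (TCCC, any 2 bases and GGGA), held by 0.904% of all start regions, TGACGTCA, the full cyclic AMP response element, held by 1.79%, and TTGCNNCAA, bound by C/EBP proteins, held by 2.08%. A match of letters is not a binding site, and a motif that is not in these windows may lie elsewhere.

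The labels of the arrays were checked on Olfm2. Its log2 signal averaged 3.22 ± 0.38 in sc KO and 4.88 ± 0.42 in sc WT adipocytes, and 3.54 ± 0.15 in g KO and 4.34 ± 0.23 in g WT adipocytes (SD, n = 5 each). Olfm2 fell by 1.66 in sc (SE 0.19, adjusted p = 0.000152) and fell by 0.80 in g (adjusted p = 0.00784) in limma's moderated test with Benjamini-Hochberg adjustment over all genes, with no overlap of the groups in either depot. Its signal was above the median of the array's negative control probes on 3 sc WT arrays and on 0 arrays of the other groups. The check in g therefore rests on values under that median. Separate cultures are not stated in the labels, and each p-value rests on the spread among these arrays, which may be technical. Adipocyte markers were strong on every array, but markers of other tissues were not at zero: the mean of 16 hepatocyte genes was above 7 on 8 arrays, 4 of them g KO, 2 sc KO and 2 g WT, and that of 10 lymphocyte genes was above 7.5 on 2 sc KO arrays and 1 sc WT array. The mean of 10 skeletal muscle genes was 7.97 on sc317KO, 7.32 on sc320KO, 10.9 on sc286WT and 9.07 on sc307WT, against at most 5.78 on the other 16 arrays, and 3 of these 4 are also the lymphocyte-high ones. Macrophage genes averaged 8.01 to 10.2 on every array. Adipocytes is therefore used here as the name in the labels and does not mean that the samples held adipocytes alone. Where the transcripts of other tissues came from was not tested.

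Olfr734, the gene of the asprosin receptor, was lower in KO than in WT adipocytes of both depots. Its log2 signals were 5.40, 5.43, 4.87, 5.45 and 5.53 in sc KO adipocytes, against 6.11, 6.38, 7.02, 6.70 and 6.90 in sc WT adipocytes. Every sc KO array lay under every sc WT array. The group means were 5.33 ± 0.26 in sc KO and 6.62 ± 0.38 in sc WT (SD, n = 5 each), a difference of -1.29 (SE 0.20) or 2.44-fold lower. In g its signals were 3.77, 4.14, 4.46, 4.09 and 4.83 in KO adipocytes, against 5.18, 5.50, 5.15, 5.61 and 4.77 in WT adipocytes. The g groups overlapped through 1 KO array at 4.83 and 1 WT array at 4.77, and the difference was -0.98 (SE 0.20).

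Olfr735, the receptor gene next to it, was also lower in KO than in WT adipocytes of both depots. Its log2 signals were 5.36, 5.99, 4.93, 5.39 and 4.65 in sc KO adipocytes, against 6.24, 6.59, 7.23, 6.92 and 7.04 in sc WT adipocytes, a difference of -1.54 (SE 0.21) or 2.91-fold lower. In g they were 4.30, 4.13, 4.01, 4.08 and 4.6 in KO adipocytes, against 4.83, 5.34, 5.17, 5.49 and 5.26 in WT adipocytes, a difference of -1.0 (SE 0.21). Neither depot had an overlap between KO and WT arrays for this receptor gene, whose ligand is not given in the sources used here.

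Olfr731, at the other end of the row, was higher on each of the 5 sc WT arrays than on any array of the other groups. Its log2 signals were 4.02, 4.29, 4.10, 4.09 and 4.44 in sc KO adipocytes, against 4.68, 5.97, 6.22, 5.33 and 6.11 in sc WT adipocytes. The lowest sc WT array, sc286WT, was close to the KO arrays without reaching them, and the difference was -1.47 (SE 0.24). In g the signals were 3.75, 3.24, 3.32, 4.08 and 3.77 in KO adipocytes, against 4.0, 4.61, 4.59, 4.53 and 4.08 in WT adipocytes, with an overlap and a difference of -0.73 (SE 0.24).

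Olfr732 and Olfr733, the pair with the alike start regions, had the smallest differences of the row in g. Olfr732 had log2 signals of 3.36, 3.65, 2.81, 3.14 and 3.27 in sc KO adipocytes, against 4.18, 4.57, 5.11, 4.68 and 4.64 in sc WT adipocytes, a difference of -1.39 (SE 0.16). Its g signals were 2.75 to 3.06 in KO and 3.24 to 3.81 in WT adipocytes, which did not overlap, and the difference was -0.54 (SE 0.16). Olfr733 had signals of 3.90, 4.62, 4.37, 4.70 and 4.04 in sc KO adipocytes, against 4.85, 5.28, 5.60, 5.60 and 5.91 in sc WT adipocytes, a difference of -1.12 (SE 0.19). In g Olfr733 ran between 3.43 and 3.71 in KO and between 3.36 and 4.26 in WT adipocytes, and with groups that overlapped its difference was -0.27 (SE 0.19).

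The receptor signals were low ones. The median of 5222 negative control probes lay between 4.45 and 4.84 on the 20 arrays, and their 95th percentile between 7.02 and 7.48. Olfr734 was above its array's control median on 5 sc KO, 5 sc WT, 1 g KO and 5 g WT arrays, and Olfr735 on 4, 5, 0 and 5. Olfr731 passed that median on 4 sc WT arrays, Olfr732 on 2 sc WT arrays, and Olfr733 on 2 sc KO and 5 sc WT arrays, with none in g. Of all receptor values, 1 was above the 95th percentile, that of Olfr735 on 1 sc WT array. A difference between values at or under the control level need not reflect the size of a change in RNA, and how far the probes of these neighbouring genes could bind each other's transcripts was not tested.

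**Figure D1:**
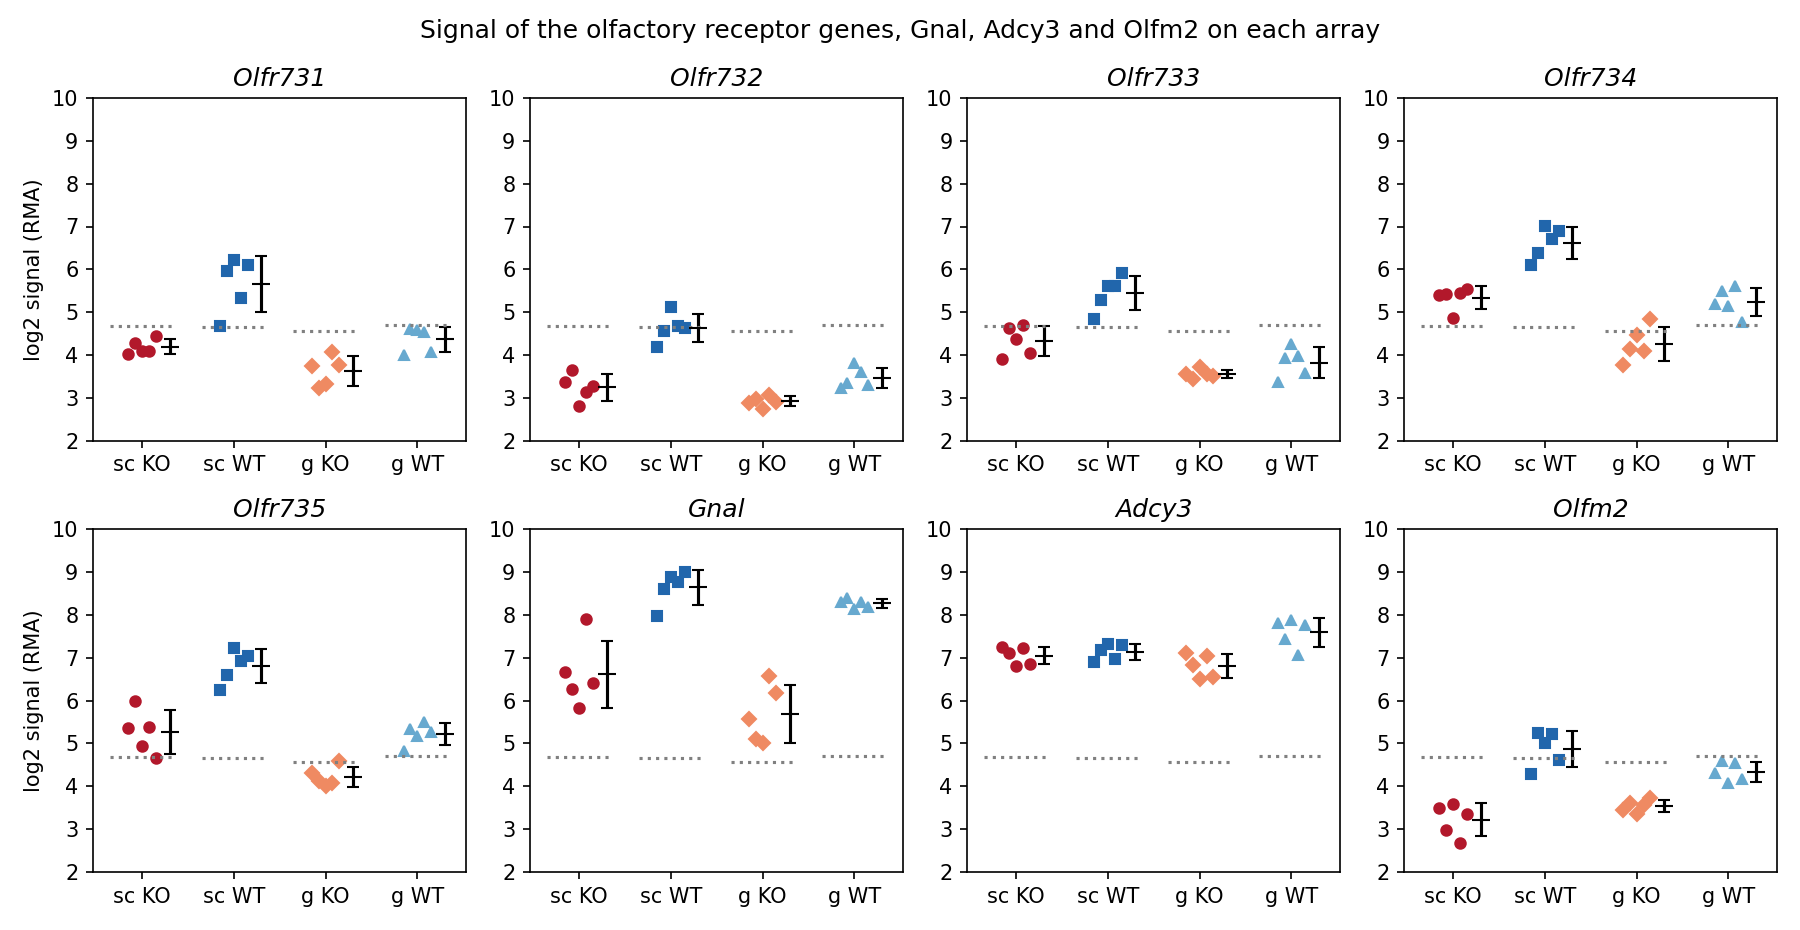
Log2 signal (RMA, vertical axis) of the 5 receptor genes, Gnal, Adcy3 and Olfm2 on each of 20 arrays in 4 groups; points are arrays, the black bar is the mean ± SD (n = 5), and the dotted line is the mean over a group's arrays of the median of the negative control probes. For each receptor gene the sc WT arrays lie above those of sc KO, and Gnal is lower in KO adipocytes of both depots.

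Gnal, which encodes the alpha subunit of Golf, had the largest difference of the 7 genes in both depots. Its log2 signals were 6.67, 6.28, 5.83, 7.91 and 6.40 in sc KO adipocytes, against 7.97, 8.60, 8.88, 8.78 and 9.01 in sc WT adipocytes. Array sc318KO, at 7.91, came just under the lowest sc WT array, sc286WT at 7.97, while the other 4 sc KO arrays lay well below it. The difference was -2.03 (SE 0.32), or 4.08-fold lower. In g the signals were 5.57, 5.10, 5.02, 6.58 and 6.17 in KO adipocytes, against 8.30, 8.40, 8.14, 8.31 and 8.19 in WT adipocytes. The g WT arrays lay close together, with an SD of 0.10 against 0.68 in g KO, and the difference was -2.58 (SE 0.32), or 5.98-fold lower. Gnal was above the control median on all 20 arrays, and above the 95th percentile of the control probes on 1 sc KO, 5 sc WT, 0 g KO and 5 g WT arrays.

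Adcy3, the cyclase that Golf activates, did not follow Gnal in sc. Its log2 signals were 7.24, 7.12, 6.81, 7.23 and 6.86 in sc KO adipocytes, against 6.91, 7.18, 7.32, 6.97 and 7.30 in sc WT adipocytes, and the groups lay across each other with a difference of -0.09 (SE 0.16). In g they were 7.10, 6.82, 6.51, 7.05 and 6.54 in KO adipocytes, against 7.82, 7.44, 7.89, 7.06 and 7.75 in WT adipocytes. All but 1 of the g WT arrays lay above every g KO array, and the difference was -0.79 (SE 0.16).

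Over the 7 genes, 6 passed the threshold of an adjusted p under 0.05 for KO against WT in sc, all lower, where 0.677% of all genes passed and 0.379% passed as lower. The 6 are the 5 receptor genes and Gnal, and each also lay lower with no overlap between groups, against 1.53% of all genes. In g 5 of the 7 passed, all lower, where 11.3% of all genes passed and 6.27% passed as lower. Those 5 were Olfr732, Olfr734, Olfr735, Gnal and Adcy3, and 3 of the 7 lay lower with no overlap, against 5.73% of all genes. The median difference over the 7 genes was -1.39 in sc and -0.79 in g, against 0.01 and 0.02 over all genes. The genes were chosen by these same differences, so the counts are no support for them.

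The difference between the depots in the KO effect passed for 0 of the 7 genes, where 0.0769% of all genes passed. Taken as g minus sc, it was 0.74 for Olfr731, 0.85 for Olfr732, 0.86 for Olfr733, 0.31 for Olfr734 and 0.54 for Olfr735, each towards a smaller difference in g. For Gnal it was -0.55 and for Adcy3 -0.70, both towards a larger one in g. A miss of the threshold does not show that the effects in sc and g were alike.

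The receptor genes also differed by depot. In WT adipocytes all 5 were lower in g than in sc with no overlap, with differences of -1.30 for Olfr731, -1.18 for Olfr732, -1.63 for Olfr733, -1.38 for Olfr734 and -1.58 for Olfr735. They were the 5 of the 7 genes that passed, where 17.8% of all genes did, 8.48% passed as lower and 7.36% lay lower with no overlap. In KO adipocytes the g values were lower, with differences of -0.56, -0.33, -0.77, -1.07 and -1.04 in the same order of genes. Olfr733, Olfr734 and Olfr735 passed and did not overlap there, 3 of 7 genes, where 4.13% of all genes passed, 1.27% passed as lower and 1.95% lay lower with no overlap. Gnal differed by -0.38 between g and sc in WT and by -0.93 in KO adipocytes, with overlap in both. Adcy3 was the one gene of the 7 with a higher mean in g WT than in sc WT, by 0.45, and it was at -0.25 in KO adipocytes, again with overlap.

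The order of the group means differed between the genes. All 5 receptor genes were highest in sc WT, which did not overlap the next group. Olfr731, Olfr732 and Gnal ran from sc WT through g WT and sc KO to g KO, while Olfr733, Olfr734 and Olfr735 had sc KO before g WT. Of the lower neighbours in these orders, g WT and sc KO did not overlap for Gnal, and g WT and g KO did not overlap for Olfr735. All other lower neighbours overlapped, and so did sc WT and g WT for Gnal. For Adcy3 the order was g WT, sc WT, sc KO and g KO, with overlap between each pair of neighbours.

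The genes on both sides of the row on chromosome 14 were compared with it. In RefSeq order, 19 other measured olfactory receptor genes lie within 15 genes of the row, 9 before Olfr731 and 10 after Olfr735. Of these, 1 passed for KO against WT in sc, Olfr730, the gene before Olfr731, which fell by 0.79 (SE 0.18, limma adjusted p = 0.0499). Its log2 signals of 3.0 to 3.34 in sc KO and 3.37 to 4.50 in sc WT adipocytes were all below their arrays' control medians, and its call was lost when any 1 of 15 of the 20 arrays was left out (adjusted p up to 0.139). The other 18 had differences between -0.19 and 0.27 in sc. The group means of these 18 ran from 2.69 to 4.36, under the control medians of 4.45 to 4.84. A small difference there need not show that the RNA was unchanged. In g none of the 19 passed, with differences between -0.09 and 0.37, and Olfr730 was at 0.26 (SE 0.18). Tlr11, a toll-like receptor gene between Olfr735 and Olfr736, was at 0.11 in sc and 0.09 in g. In WT adipocytes Olfr730 was lower in g than in sc (difference -0.81, SE 0.18, adjusted p = 0.00363), as the 5 genes beside it were.

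**Figure D2:**
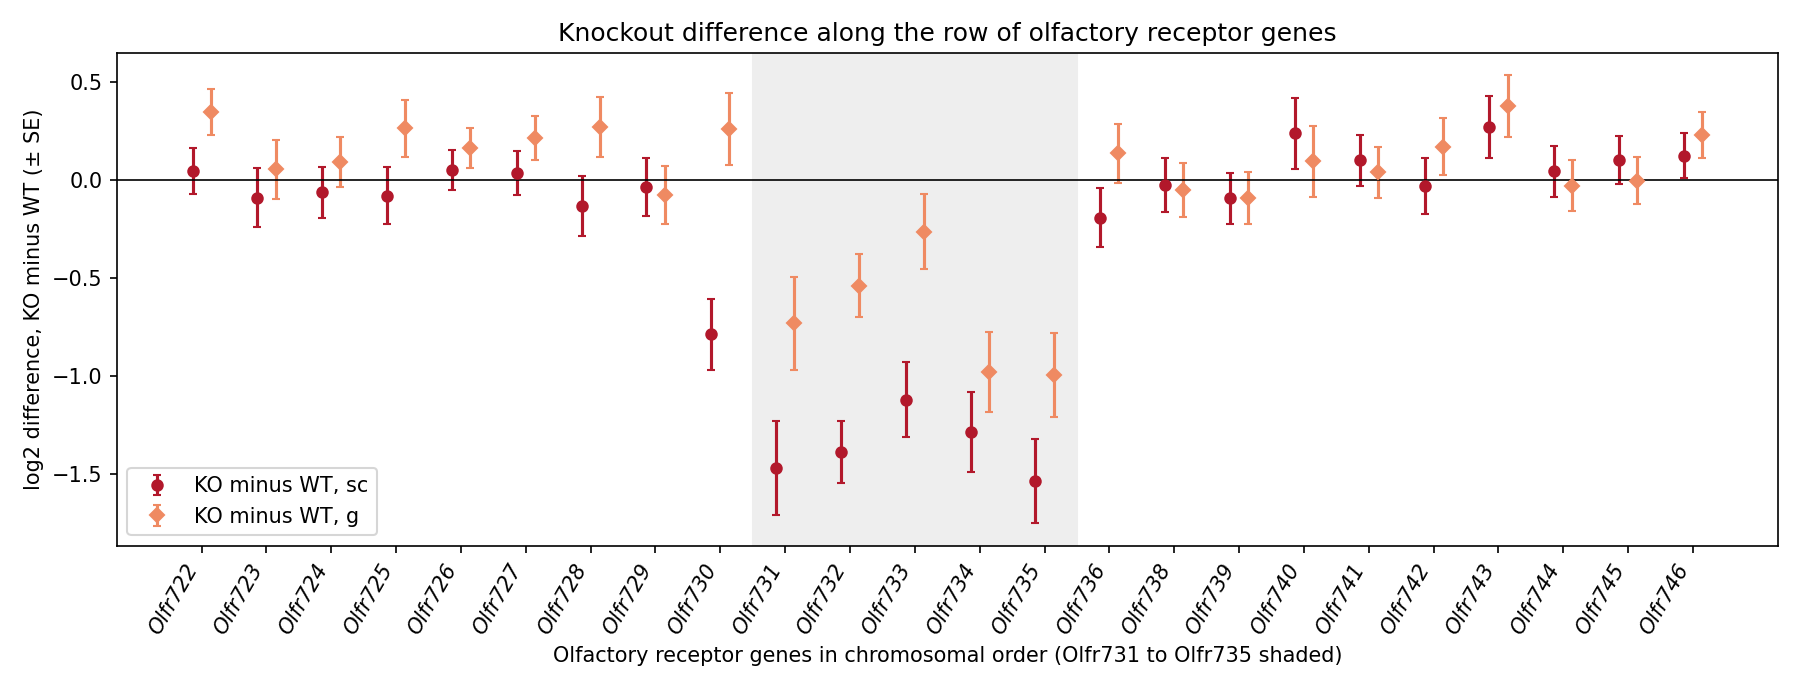
Difference between KO and WT in log2 signal (± SE of the fit, vertical axis) for 24 olfactory receptor genes in chromosomal order, in sc (circles) and g (diamonds). Olfr731 to Olfr735, shaded, lie between -1.54 and -1.12 in sc, Olfr730 is at -0.79, and the other 18 genes lie between -0.19 and 0.27. The 19 genes that are not shaded have group means under the negative control median of every array.

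Few olfactory receptor genes outside the row passed. Of 1086 others on the array, 2 passed in sc (0.184%, against 0.677% of all genes), with a median difference of 0.00 over the 1086. The 2 were Olfr730 and Olfr1157, which rose by 0.57 (limma adjusted p = 0.0131). In g 19 passed (1.75%, against 11.3% of all genes), 16 higher and 3 lower, with a median of 0.09. The count of 19 became 9 without array g286 WT. How many of the 1086 had a signal above the control probes was not counted. The 3 that fell in g were Olfr111, at -1.75 (SE 0.24, adjusted p = 0.000154), Olfr110, at -0.95 (SE 0.14, adjusted p = 0.000291), and Olfr920, at -0.60 (adjusted p = 0.0135). Olfr111 had log2 signals of 5.28, 5.83, 4.38, 4.87 and 4.25 in g KO adipocytes, against 6.82, 6.43, 7.05, 6.47 and 6.56 in g WT adipocytes. Its depot order was the opposite of that of Olfr731 to Olfr735: in WT adipocytes it was higher in g than in sc by 2.43 (adjusted p = 1.58e-06), and Olfr110 by 1.29 (adjusted p = 3.76e-06). The largest rises in g, of Olfr640, Olfr788 and Olfr1195, were 0.51, 0.48 and 0.47 (adjusted p = 0.0374, 0.0198 and 0.0178). Of 6 measured receptor genes known from work outside the nose (among them Olfr544 and Olfr1393), 0 passed in either depot and 0 had an unadjusted p under 0.05 in limma. Of all 19505 genes, 2017 had an unadjusted p under 0.05 in sc, 4702 in g and 2537 for the difference between depots.

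The 5 receptor genes varied together over the arrays. Their 10 pairs had correlations between 0.874 and 0.941 over the 20 arrays (median 0.901), which share the 4 groups. After the group means were taken off, the correlations were between 0.411 and 0.651 (median 0.497). Gnal and the mean of the 5 receptor genes correlated at 0.77 over the 20 arrays and 0.48 within groups, and Adcy3 and that mean at 0.21 and 0.11. In g WT adipocytes Gnal was high while the receptor mean stayed between 4.12 and 4.64. Both had their highest group mean in sc WT adipocytes, where the receptor mean was 5.21 to 6.24 on the single arrays. Array sc286WT, which had the strongest skeletal muscle markers of all arrays and strong lymphocyte markers, was the lowest of sc WT in both measures.

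**Figure D3:**
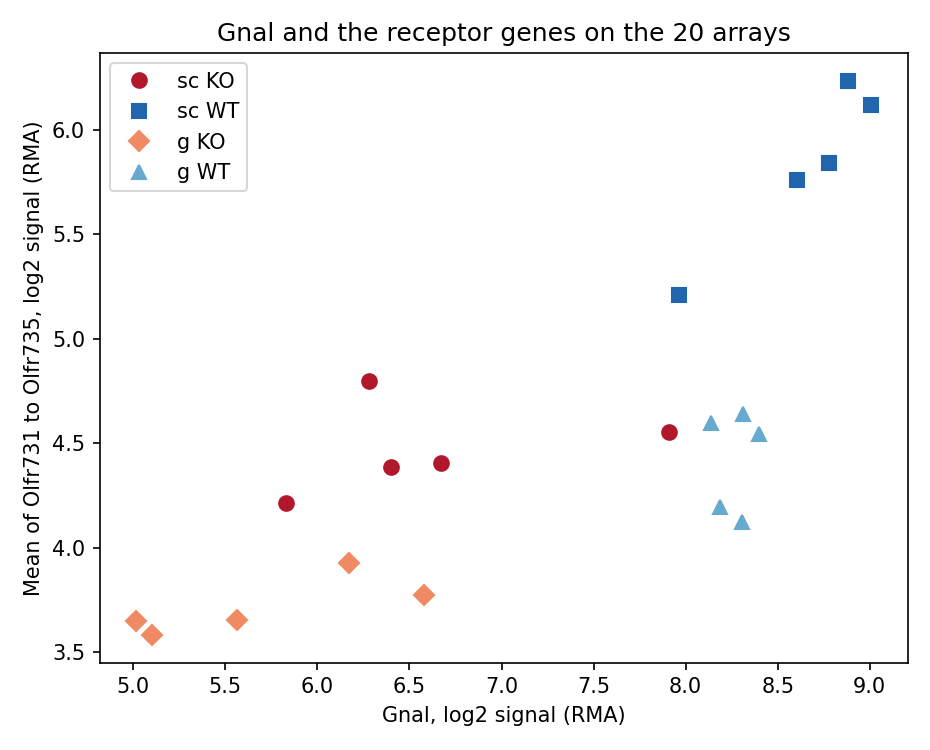
Mean log2 signal of Olfr731 to Olfr735 (vertical axis) against the log2 signal of Gnal (horizontal axis) on each of 20 arrays, by group. The g WT arrays have Gnal between 8.14 and 8.40 with receptor means of 4.12 to 4.64, and the sc WT arrays have receptor means of 5.21 to 6.24.

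Of all genes with a full symbol other than the 7 described, those most like Gnal over the 20 arrays were A4galt, an alpha-galactosyltransferase of glycolipids (r = 0.961, and 0.77 within groups), Slc6a6, the taurine transporter (0.915 and 0.53), Itgad, an integrin alpha chain of macrophages (0.899 and 0.64), Fam122b (0.891 and 0.65) and Fbln7, a fibulin (0.883 and 0.58). A4galt fell by 0.70 in sc and fell by 0.88 in g. Most like the receptor mean were Ugt8a, the enzyme of galactosylceramide synthesis (0.946 and 0.61), Dhrs7b (0.932 and 0.57), Dnajc19, a mitochondrial import protein (0.922 and 0.66), Echdc1, an ethylmalonyl-CoA decarboxylase (0.918 and 0.69), and Hebp2, a haem-binding protein (0.917 and 0.51). Ugt8a fell by 1.41 in sc and was at -0.67 in g. Olfr734 by itself correlated at 0.941 with Olfr735, 0.903 with Olfr732, 0.894 with Olfr731 and 0.885 with Olfr733, and of the genes outside the 7 it was most like Hebp2 (0.911), Cspg4 (0.884), Tmem132b (0.879), Echdc1 (0.864) and Dhrs7b (0.864). These correlations describe 20 arrays in 4 groups and carry no p. The genes were picked by likeness to genes chosen for their KO differences. The falls of A4galt and Ugt8a are therefore no separate support.

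Genes of the other G protein subunits had no call in sc, where 0.677% of all genes passed, and some in g, where 11.3% did. Of 15 other G protein alpha subunit genes 0 passed for KO against WT in sc, and 3 had an unadjusted p under 0.05 in limma. Gnas, whose product is the stimulatory alpha subunit closest to Golf, was at 0.02 in sc and 0.09 in g (SE 0.06 each). In g 3 of 15 passed: Gnai1, an inhibitory subunit, rose by 0.57 (adjusted p = 0.00213), while Gna13 fell by 0.57 (adjusted p = 0.00011), and Gnai2 fell by 0.27 (adjusted p = 0.0482, lost when any 1 of 13 arrays was left out). Of 18 genes of beta and gamma subunits and Ric8 chaperones, 0 passed in sc with 2 at an unadjusted p under 0.05, and 3 fell in g: Gng2 by 0.83 (adjusted p = 0.00948), Gng12 by 0.43 (adjusted p = 0.00123) and Gngt2 by 0.42 (adjusted p = 0.0315, lost without any 1 of 6 arrays). With the mean of macrophage markers as a covariate, Gng2 was at 0.03 and Gngt2 at 0.12 in g. The difference between depots passed for 1 gene of both lists, Gna13 (-0.64, adjusted p = 0.0179), and it was lost without array sc307WT.

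Of 9 other adenylate cyclase genes 0 passed in sc, with 0 at an unadjusted p under 0.05 in limma, and 2 passed in g. Adcy6 rose by 0.47 (adjusted p = 0.00221) and averaged 8.77 ± 0.17 in g KO and 8.30 ± 0.15 in g WT adipocytes (SD, n = 5 each, limma). Adcy7, a cyclase of blood cells, fell by 0.93 (adjusted p = 0.00577) and averaged 7.16 ± 0.35 in g KO and 8.09 ± 0.27 in g WT adipocytes (SD, n = 5 each, limma). The difference between depots passed for 0 of the 9, with 3 at an unadjusted p under 0.05 in limma. The chromosomal neighbours of Adcy3 within 5 genes had 6 measured genes, of which Efr3b passed in g, where it fell by 1.5 (SE 0.32, adjusted p = 0.00444). Of 3 measured neighbours of Gnal 0 passed in either depot.

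**Figure D4:**
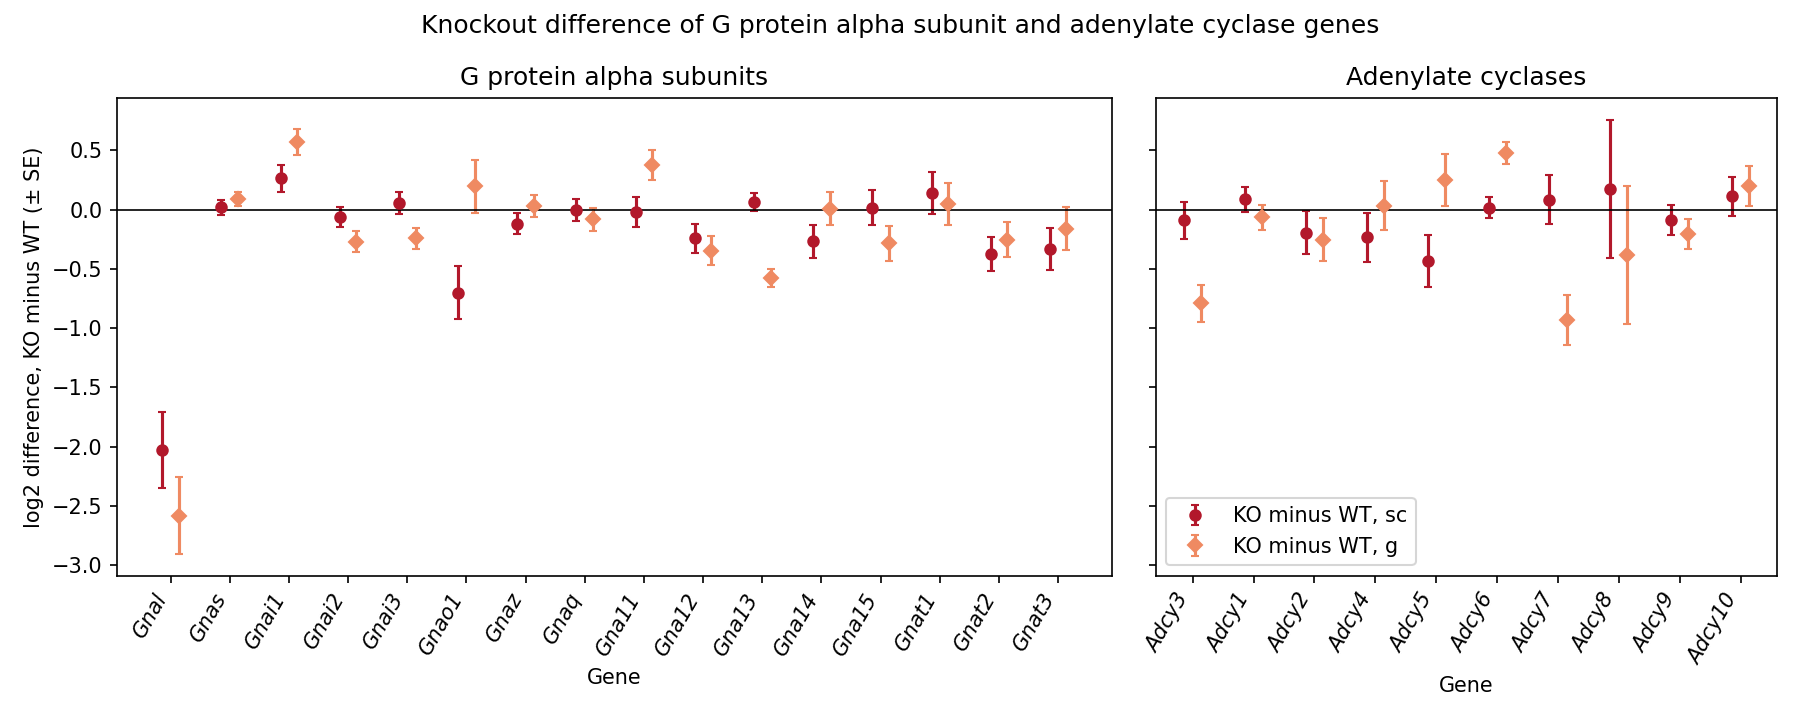
Difference between KO and WT in log2 signal (± SE of the fit, vertical axis) for Gnal and 15 other G protein alpha subunit genes (left) and for Adcy3 and 9 other adenylate cyclase genes (right), in sc (circles) and g (diamonds). Gnal lies at -2.03 in sc and -2.58 in g, and Gnas lies at 0.02 and 0.09.

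Of 18 measured genes of olfactory signal transduction, such as the channel genes Cnga2 and Cngb1, the receptor transporter Rtp1 and the marker protein gene Omp, 0 passed in sc or in g, with 0 and 2 at an unadjusted p under 0.05 in limma. The mean of 10 olfactory neuron markers lay between 4.51 and 4.94 on every array, near the control median. Of the 10, the markers below the control median on every array of a group numbered 4 in sc KO, 3 in sc WT, 1 in g KO and 3 in g WT. S100a5 was the only one below it on every array of all 4 groups. Of 10 genes of receptor gene choice, 0 passed in sc, with 2 at an unadjusted p under 0.05, and Ebf1, an early B-cell factor that also acts in fat cell formation, rose by 0.33 in g (adjusted p = 0.00802).

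Genes tied to asprosin and cyclic AMP had calls in g, where 11.3% of all genes passed, and none in sc, where 0.677% did. Of 4 measured genes tied to asprosin, 0 passed in sc with 1 at an unadjusted p under 0.05, and in g Ptprd, a phosphatase described as its receptor in neurons, rose by 0.45 (limma adjusted p = 0.00847), while Tlr4 fell by 0.43 (adjusted p = 0.0228). Of 22 genes of protein kinase A, phosphodiesterases and related proteins 0 passed in sc, with 2 at an unadjusted p under 0.05. In g 4 of 22 passed, or 18.2%: Pde3b, the phosphodiesterase through which insulin curbs lipolysis, rose by 0.61 (adjusted p = 0.00122), Akap12 by 0.65 (adjusted p = 0.0224) and Prkar2b by 0.46 (adjusted p = 0.00141), and the catalytic subunit gene Prkacb fell by 0.55 (adjusted p = 0.0013). Of 24 measured receptors that act through Gs or Golf, or serve adipocytes, 0 passed in sc with 6 at an unadjusted p under 0.05. In g 7 of 24 passed: the corticotropin receptor gene Mc2r rose by 0.67, Tshr by 0.59, Sctr by 0.58 and the fatty acid receptor gene Ffar4 by 0.93, and Ptger4 fell by 0.62, Vipr2 by 0.72 and Calcrl by 0.57 (limma adjusted p between 0.000128 and 0.0315). Akap12, Mc2r, Tshr, Sctr, Ptger4 and Tlr4 lost their calls without any 1 of 2 to 7 arrays, g307 WT among them for each (adjusted p up to 0.0934), and Tlr4 was at 0.16 with the macrophage covariate. Over these 3 lists the difference between depots passed for 0 genes, with 1, 5 and 6 at an unadjusted p under 0.05.

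Markers of other cells differed between the groups as well. The mean of 14 macrophage genes lay between 8.01 and 8.51 in sc KO and 8.35 and 8.65 in sc WT adipocytes, and between 8.68 and 9.43 in g KO and 9.68 and 10.2 in g WT adipocytes. The mean of 9 genes of lipid-associated macrophages lay between 6.50 and 8.19 in sc KO and 8.39 and 8.96 in sc WT adipocytes, and between 7.64 and 9.83 in g KO and 10.2 and 10.8 in g WT adipocytes, so that KO and WT overlapped in neither depot. Unlike Olfr731 to Olfr735, both lists were higher in g than in sc in WT adipocytes, where 13 of 14 and 7 of 9 genes passed as higher. The mean of 10 mast cell genes lay between 5.35 and 6.09 in g KO and 7.11 and 8.15 in g WT adipocytes. The mean of 12 adipocyte genes lay between 11.35 and 11.56 in g KO and 10.78 and 11.17 in g WT adipocytes, and between 11.57 and 11.72 in sc KO and 11.30 and 11.60 in sc WT adipocytes. With the macrophage mean as a covariate the KO difference of Gnal was -1.93 in sc and -2.30 in g, that of Olfr734 -1.49 and -1.55, and that of Adcy3 0.08 and -0.31. Then 6 of the 7 genes passed in sc, where 58 of all genes did, and 0 in g, where 1 of all genes did. In samples of mixed cells, fewer cells of a type and less RNA per cell cannot be told apart, and the part of the mast cell, lipid-associated macrophage and adipocyte markers in the result was not tested.

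Brown fat markers ran the same way as the receptor genes between depots. In WT adipocytes 7 of 16 brown fat genes passed as lower in g than in sc and 0 as higher, with a median difference of -0.82 against -0.04 over all genes, where 8.48% of all genes passed as lower. The mean of the 16 genes lay between 6.26 and 6.58 in sc KO and 6.58 and 7.02 in sc WT adipocytes, with an overlap of 1 array each, and between 5.91 and 6.05 in g KO and 5.75 and 6.21 in g WT adipocytes. For KO against WT, 1 of the 16 passed in each depot, Ucp1, the uncoupling protein of brown fat, where 0.677% of all genes passed in sc and 11.3% in g. The median KO difference of the 16 was -0.18 in sc, with 3 genes above 0. In g it was 0.10, with 11 of the 16 above 0, so Ucp1 does not stand for the list there. Ucp1 averaged 5.66 ± 1.05 in sc KO and 8.22 ± 0.54 in sc WT adipocytes, and 4.09 ± 0.23 in g KO and 6.42 ± 1.04 in g WT adipocytes (SD, n = 5 each), with no overlap in either depot. It fell by 2.56 in sc (SE 0.46, limma adjusted p = 0.00817) and fell by 2.33 in g (adjusted p = 0.00224), calls that were lost with the macrophage covariate (adjusted p = 0.0534 and 0.528) and without the hepatocyte-high arrays (adjusted p = 0.107 and 0.327). In WT adipocytes it was lower in g than in sc (difference -1.79, adjusted p = 0.00878). Ucp1 correlated with Gnal at 0.708 over the 20 arrays and at -0.44 within groups, and with the receptor mean at 0.771 and -0.46. With the mean of the brown fat genes as a covariate, added after seeing the data, the KO difference of Gnal was -2.46 in sc and -2.72 in g. Those of the 5 receptor genes lay between -1.73 and -1.29 in sc. Then 6 of the 7 genes passed in each depot, where 59 of all genes passed in sc and 2147 in g. For g against sc with that covariate 1 of the 7 genes, Olfr733, passed in WT and in KO adipocytes, where 19 and 38 of all genes passed.

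The KO differences were taken again without the arrays that had strong hepatocyte, skeletal muscle or lymphocyte markers. Without the 8 hepatocyte-high arrays, which left 1 g KO array whose spread is assumed to be that of the other groups, Gnal was at -2.48 in sc and -2.67 in g, Olfr734 at -1.35 and -1.37, Olfr735 at -1.61 and -0.96, and Olfr731, Olfr732 and Olfr733 at -1.38, -1.39 and -1.11 in sc. Fewer of the 7 genes then passed in each depot than with all arrays. Counts are not given here, as 1 g KO array was left. Without the 4 arrays with strong skeletal muscle markers, an alternative chosen after seeing the data, Gnal was at -1.84 in sc and no longer passed. The 5 receptor genes then lay between -1.67 and -1.19 in sc and still passed. This made 5 of 7 genes, where 45 of all genes passed. Without the 3 lymphocyte-high arrays Gnal was at -1.86 in sc, and the 5 receptor genes lay between -1.77 and -1.19. Then 6 of 7 genes passed, where 93 of all genes did. With any single array left out, 6 of 7 genes passed in sc, where 60 to 197 of all genes did. In g 4 to 6 passed, where 1425 to 2357 of all genes did. The 7 genes were chosen by their differences in these values, so these counts are no support for them.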

How the data were processed

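Per the labels' protocols, 100 ng of total RNA per sample was labelled with the GeneChip WT PLUS kit. Per the submitters' processing notes RMA and limma were used by the authors, and the deposited values are on the scale RMA gives, a log2 signal for each probe. Versions, the array's genome build and a joint run of all arrays are not given here. The design text of the series names PKP2 beside sc where the labels give Olfm2, and the labels were used.

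The table had 28846 probes. Setting aside 6640 controls left 22206, of which 19572 carried 1 gene symbol and 2634 none. For 55 genes with several probes the brightest on average was kept, which left 19505 genes, all matched to RefSeq by Entrez identifier. Gene order and start regions came from RefSeq (GRCm38.p6), and alignments were made with Biopython 1.88. Arrays of a group correlated at 0.953 to 0.992. Arrays give no counts, and their number limits the precision.

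A model with 1 mean per group was fitted with limma 3.58.1 in R 4.3.3 (20 arrays, 16 residual degrees of freedom), with moderated two-sided tests and Benjamini-Hochberg adjustment over all 19505 genes. Passed means an adjusted p under 0.05. The fit was tested on simulated data. The 7 genes and all gene lists were chosen with earlier results of these data known. Outside the 7 genes, those named were Olfm2, list genes that passed or else those of smallest p, the 3 largest rises and falls among other receptor genes, neighbours that passed, and the 5 genes of highest correlation. Gnas, Tlr11, Ucp1 and the neighbour Olfr730 in g were also given, chosen after their values were seen. Alternatives were scaling, a filter on dim genes, the variance model, array weights, the groups fitted, a replicate block, marker covariates and arrays left out. The brown fat covariate and the fit without muscle-high arrays were added after seeing the data.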

Additional observations from a re-analysis of the deposited data

Results flagged for a closer look

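Olfr734 on array sc317KO had a log2 signal of 4.87, far from the other 4 sc KO arrays for the spread of that group. It was the single such case in 28 groups of 5 arrays (7 genes in 4 groups), where chance gives about 1 in 20. With any single array left out, the sc difference of Olfr734 kept its direction and its side of the threshold.

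The KO effect differed between the depots for Gna13, which encodes a G protein alpha subunit, by -0.64 as g minus sc (limma adjusted p = 0.0179). The call was lost without array sc307WT (adjusted p = 0.056). It differed also for Olfr1157, by -0.88 (limma adjusted p = 0.0239), a call that was lost when any 1 of 6 arrays was left out.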

How the results depend on the processing

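For the 7 genes, 1181 values under the alternatives moved by less than the gene's spread between arrays of a group, 22 moved further and 0 called values changed sign. This count does not follow the threshold, which was crossed more often. In g Olfr732, called in the main fit, passed under 26 of 34 alternatives, and Olfr731, not called there, passed under 11 of 34. The KO difference ran from -2.48 to -1.83 in sc and from -2.80 to -2.30 in g for Gnal, from -1.49 to -1.17 and from -1.55 to -0.86 for Olfr734, and from -0.27 to 0.10 and from -0.92 to -0.31 for Adcy3. The number of the 7 genes that passed changed by over 1.5 times with dim genes left out, to 3 in sc and 3 in WT between depots, since Olfr731, Olfr732 and Olfr733 were then not tested. Of all genes, 150 and 3653 passed in that fit. With the macrophage covariate it was 0 in g, 0 in WT and 0 in KO between depots, and without the hepatocyte-high arrays it was 1 in g and 0 in KO between depots. With the brown fat covariate it was 1 in WT and 1 in KO between depots; the cause was not tested, beside the smaller number of arrays. With single arrays left out it was 6 to 6 in sc, 4 to 6 in g, 0 to 0 for the difference between depots, 5 to 6 in WT and 2 to 3 in KO between depots.

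Of all genes, 132 passed in sc, against 233 with array weights and 84, 58 and 37 with the hepatocyte, the macrophage and 3 marker covariates (hepatocyte, lymphocyte and muscle), 59 with the brown fat covariate and 45 without the muscle-high arrays, the last 2 added after seeing the data. In g 2200 passed, against 1169 and 1 with the hepatocyte and macrophage covariates and 43 without the hepatocyte-high arrays. For the difference between depots 15 passed, against 28 with a trended variance, 30 with array weights, 0 with the macrophage, 1 with the 3 and 0 with the brown fat covariates, and 1, 3 and 1 without the hepatocyte-high, the lymphocyte-high and the muscle-high arrays. Between depots in WT 3468 passed, against 2, 1874 and 19 with the macrophage, the 3 and the brown fat covariates, and in KO 806, against 311 with only the groups compared, 119 with the macrophage covariate, 38 with the brown fat covariate and 118 without the hepatocyte-high arrays. With single arrays left out the counts were 60 to 197 in sc (60 without sc287WT), 1425 to 2357 in g (1425 without g307 WT), 4 to 41 for the difference between depots (41 without sc286WT, 4 without sc307WT), 2663 to 3770 in WT and 530 to 845 in KO between depots (530 without sc320KO).

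Of the 1086 other receptor genes, 2 passed in sc, against 1 with each array centred, with all probes, with array weights, with the hepatocyte or macrophage covariate and without the hepatocyte-high arrays, and against 0 with dim genes left out, only the groups compared, the 3 or the brown fat covariates and without the lymphocyte-high or muscle-high arrays. In g 19 passed, against 12 after quantile normalization, 3 with dim genes left out, and 0 with the macrophage covariate or without the hepatocyte-high arrays. For the difference between depots the 1 call became 0 with dim genes left out, the macrophage, the 3 or the brown fat covariates, or any of the 3 sets of arrays left out. Between depots in WT 25 passed, against 6 with dim genes left out, 62 with array weights, and 0, 11 and 1 with the macrophage, the 3 and the brown fat covariates. In KO 11 passed, against 2 with dim genes left out, 4 with array weights, 1 with only the groups compared, 6, 1, 7 and 0 with the hepatocyte, macrophage, 3 and brown fat covariates, and 0, 2 and 2 without the hepatocyte-high, lymphocyte-high and muscle-high arrays. With single arrays left out these counts were 1 to 2, 9 to 26, 0 to 1, 15 to 31 and 4 to 12.

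Of 15 calls that changed sign, 14 did so with the macrophage covariate, and Olfr920 between depots in WT, at -0.17, with the brown fat covariate. In g KO against WT these were Gng2 at 0.0348, Gngt2 at 0.12 and Tlr4 at 0.16. Between depots in WT they were Gna15 at -0.0556, Gng2 at -0.82, Gngt2 at -0.41, Adcy7 at -0.0337, Ebf1 at 0.0884, Akap12 at 0.000734, Tshr at 0.17, Calcrl at -0.00728, Tlr4 at -0.42, Olfr730 at 0.38 and Efr3b at -0.24. Calls of single receptor genes in g were lost without any 1 of 8 arrays for Olfr640, 3 for Olfr788 and 2 for Olfr1195.

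The labels do not say what the numbers in the titles mark, and the pairing of sc and g arrays by number was weak, with residual correlations from -0.461 to 0.142 (median 0.0111). With the number as a replicate block (consensus correlation 0.0863), 140 genes passed in sc, 2206 in g, 32 for the difference between depots, 3931 in WT and 969 in KO between depots, and 6, 5, 0, 6 and 3 of the 7 genes. The distance of the receptor signals from the negative control probes limits the precision of their differences.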
